A study of Mus musculus with 8 samples.

Results

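The data compared FAPs that lost Osr1 with control FAPs over both days at which they were sequenced, and asked which transcript levels differed with genotype at 3 and at 7 days post injury (dpi) alike. FAPs (fibro-adipogenic progenitors) are the mesenchymal progenitors of skeletal muscle. The comparison used all 8 libraries of the series, 4 Osr1cKO against 4 control, with the day as a blocking factor. Genes were reported where both Osr1cKO libraries lay on the same side of both control libraries at each day. Of 16051 genes tested, 1749 met this rule, 934 with Osr1cKO above control and 815 with Osr1cKO below it.

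Osr1cKO mice carried the floxed Osr1 allele on both chromosomes (Osr1flox/flox;CAGG-Cre+), and control mice carried it on one (Osr1flox/+;CAGG-Cre+). Both genotypes thus had the same ubiquitous, tamoxifen-inducible CAGG-CreER driver, and both received tamoxifen on the day of injury, a freeze-pierce lesion of the tibialis anterior, and on the days after it. Cre removed Osr1 coding sequence and brought eGFP under control of the Osr1 locus, so the sorted GFP+ cells of the control had lost 1 copy of Osr1 and those of Osr1cKO both copies. Any difference is therefore between heterozygous and homozygous loss, in cells that still had an active Osr1 locus. The driver was not restricted to FAPs, so other cell types of the muscle could recombine too, and the sort decided only which cells were sequenced. Its gate left out cells with the blood and endothelial surface markers CD45, CD31 and TER119. Each group held 2 libraries. A 3 dpi library came from 1 mouse and a 7 dpi library from 4 pooled mice, so day and pooling cannot be told apart.

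Osr1 is a zinc finger transcription factor of embryonic connective tissue that is switched on again in FAPs after injury. FAPs expand in the first days after damage, lay down a transient matrix and release cytokines and chemokines that act on muscle stem cells and macrophages. Interferons induce a large gene program through STAT and IRF factors, which includes antiviral effectors, guanylate-binding proteins, MHC class I genes and the chemokines Cxcl9, Cxcl10 and Cxcl11. TGF-beta and activin signals favor matrix production, and Scx and Tnmd are defining genes of tendon fibroblasts.

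Levels are given as deposited, in TPM (a share of all transcripts, normalized for gene length). Differences are log2 fold changes of Osr1cKO minus control on the log2(TPM + 1) scale after scaling between libraries, which understates the change of low genes. Recovered depth lay between 36513904 and 51092485 fragments per library. Defining FAP genes were high in every library, with Pdgfra between 197 and 365 TPM and Cd34 between 119 and 454 TPM, and the pan-leukocyte gene Ptprc stayed at or under 0.216 TPM. At 3 dpi the 4 libraries were at or near 0 for the Y-linked genes Ddx3y, Eif2s3y, Kdm5d and Uty, which summed to at most 0.00504 TPM. At 7 dpi the same sum ran from 81.2 to 93.7 TPM in control and from 4.18 to 18.2 TPM in Osr1cKO, and the X inactivation transcript Xist stood at 12.4 and 0.0252 TPM in control against 109.9 and 103 TPM in Osr1cKO. Transcripts that mark sex thus differed with genotype at 7 dpi, where mice were pooled. Of the genes named in what follows, Rnf128, Tmem35a, Egfl6, Timp1, Tnmd and Ebp lie on the X chromosome. The part of sex in the 7 dpi differences was not tested, and the sex-linked genes were chosen after their values were seen. As in any bulk sample, fewer cells of a type and less RNA per cell cannot be told apart.

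No gene passed the test of a genotype effect common to both days. With limma and Benjamini-Hochberg adjustment, 0 of 16051 genes had an adjusted p under 0.1 with a fold change over 1.2 in either direction (0% higher and 0% lower). The smallest adjusted p was 0.255, and limma-voom on recovered fragments gave 0 genes as well. Before adjustment, limma gave p under 0.05 and a fold over 1.2 for 694 higher (4.32%) and 720 lower genes (4.49%), and limma-voom gave 623 and 820. Without scaling between libraries the split was 1183 higher and 410 lower, with the median of all genes at 0.06 in place of 0.01. Everything named in what follows is therefore a description of libraries that did not overlap, not a set of called genes.

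At 3 dpi, 3201 genes had both Osr1cKO libraries above both control libraries and 2581 below. At 7 dpi the counts were 3624 and 3753. A total of 2712 genes were separated at both days, and 64.5% of these lay on the same side. The 934 genes above control were 5.82% of all tested and the 815 genes below were 5.08%, while 963 genes (6%) lay on opposite sides at the 2 days. Whether separated or not, 8571 of all genes tested were higher and 7480 lower over both days. These 2 counts are the background for the splits of gene lists given below. Of the same-side genes, 405 of 934 higher and 439 of 815 lower ones were also past this threshold before adjustment. Their differences were modest, with a median size of 0.26 for the higher and 0.31 for the lower genes. In 601 higher and 536 lower genes the difference was larger at 3 dpi than at 7 dpi. Replicates were also farther apart at 3 dpi. The standard deviation over genes of their log2 difference was 0.52 in control and 0.35 in Osr1cKO at 3 dpi, and 0.28 and 0.27 at 7 dpi. The same count over all genes tested is not given here, so these counts do not show a stronger effect at 3 dpi. On the log2(TPM + 1) scale, a difference over 2-fold at both days was seen for 2 higher genes, Angpt4 and Scx. It was also seen for 4 lower genes, Cxcl9, Ifi206, Serpina3f and Gm50475, the last named after its values were seen. Because this scale shrinks low genes, the count misses some of them, such as Rnf128. Its mean level was 0.459 TPM in control and 1.83 TPM in Osr1cKO at 3 dpi, and 0.452 and 2.48 TPM at 7 dpi. With a gap of at least 1.2 times between the nearest libraries of the 2 genotypes at each day, 41 higher and 44 lower genes were left. The scaling mattered for the 7 dpi libraries. In deposited TPM without it, 1611 genes lay above and 409 below at both days, and 849 and 387 of these were shared with the scaled counts.

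**Figure D1:**
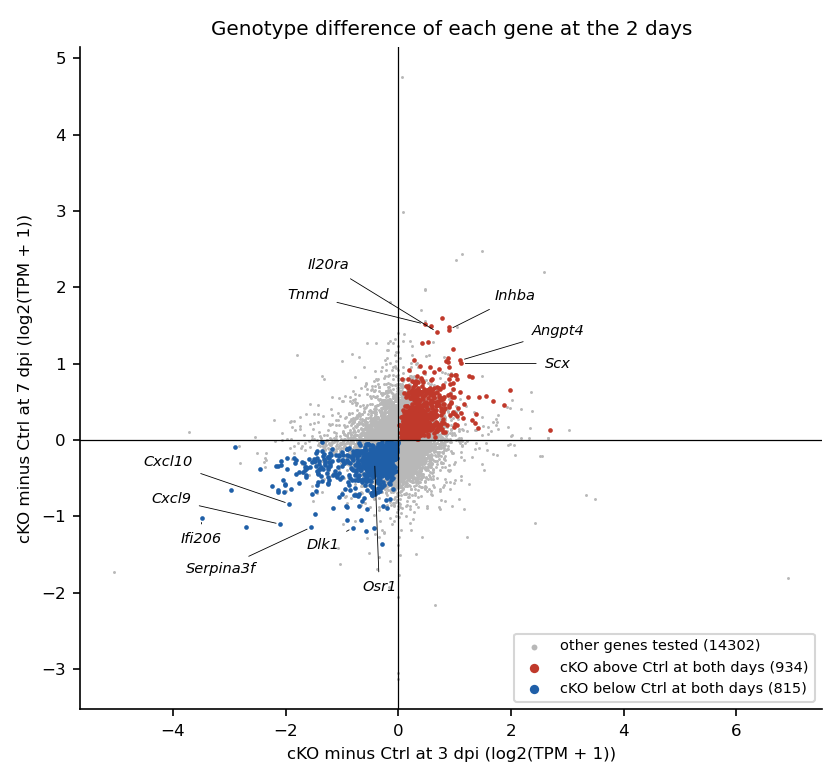
Genotype difference of each of the 16051 genes at 3 dpi (horizontal axis) and 7 dpi (vertical axis), as Osr1cKO minus control in log2(TPM + 1). Red marks the 934 genes above control at both days and blue the 815 genes below, and both clouds are small beside the axis range, with the lower genes reaching farther out along the 3 dpi axis.

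The targeted gene Osr1 (chromosome 12, 9570116 to 9581500 on the plus strand of mm10) was lower in Osr1cKO at both days. Its level was 105 and 91.0 TPM in the control pair at 3 dpi and 70.7 and 71.9 TPM in the Osr1cKO pair. The 7 dpi levels were 67.6 and 71.6 TPM in the control pair and 64.4 and 60.8 TPM in the Osr1cKO pair. The genotypes did not overlap at either day, but Osr1cKO at 3 dpi stood at the same level as control at 7 dpi. The log2 fold change over both days was -0.35 (limma SE 0.07, adjusted p = 0.449), with -0.42 at 3 dpi and -0.29 at 7 dpi. An exact permutation of the genotype labels within day, two-sided over 36 arrangements, gave p = 0.0556, the smallest this design can give. The gene-level value includes the exon that recombination leaves in place, so it checks the genotype only in part.

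Several secreted signals were among the genes with Osr1cKO above control. Angpt4, a ligand of the Tie2 receptor that acts on vessels, had 6.84 and 9.53 TPM in the control pair at 3 dpi and 19.9 and 16.6 TPM in the Osr1cKO pair. The 7 dpi values stood at 5.01 and 7.30 TPM in the control pair and 13.8 and 16.0 TPM in the Osr1cKO pair. The 4 Osr1cKO libraries were all above the 4 control libraries, whichever the day, with a log2 fold change of 1.07 (limma SE 0.15, adjusted p = 0.363). Lif, a cytokine of the interleukin 6 family, had 156 and 183 TPM in the control pair at 3 dpi and 264 and 249 TPM in the Osr1cKO pair. For 7 dpi the values were 55.7 and 43.0 TPM in the control pair and 90.4 and 84.1 TPM in the Osr1cKO pair. Its fold was thus alike at the 2 days, with differences of 0.62 and 0.68, although its level was lower at 7 dpi in both genotypes. Inhba, which encodes the subunit of activin A, stood at 106 and 79.5 TPM in the control pair at 3 dpi and 228 and 125 TPM in the Osr1cKO pair. At 7 dpi there were 69.8 and 52.3 TPM in the control pair and 229.9 and 146 TPM in the Osr1cKO pair. All 4 Osr1cKO libraries again lay above all 4 control libraries, and its log2 fold change of 1.18 (limma SE 0.25, adjusted p = 0.449) was among the 5 largest of the higher genes with a mean of at least 1 TPM, unnamed gene models left out.

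Tnfsf11, the osteoclast-inducing ligand RANKL, had a log2 fold change of 1.05, with 1.26 at 3 dpi and 0.84 at 7 dpi. Its level ran from 4.39 to 6.18 TPM in control and from 10.2 to 18 TPM in Osr1cKO at 3 dpi. Ccl20, a chemokine for cells with the receptor Ccr6, was lowly expressed, at 2.37 and 1.66 TPM in the control pair at 3 dpi and 3.73 and 4.08 TPM in the Osr1cKO pair, and its log2 fold change was 0.70. Il20ra, a receptor subunit for interleukin 20 cytokines, was also low, with 1.11 and 0.485 TPM in the control pair at 7 dpi and 4.50 and 3.56 TPM in the Osr1cKO pair. The list of cytokines and their receptors does not hold Il20ra or Ccl20. Of its 29 tested genes, 14 were higher and 15 lower, and 2 (Lif and Tnfsf11) were on the higher and 4 (Csf1, Tslp, Osmr and Ifngr1) on the lower side at both days. Osmr and Ifngr1 were below control only after scaling, and in deposited TPM Ifnar1 was added on the higher side. The list median was -0.06, beside 0.01 over all genes, and turned to 0.05 without replicate 2 of control at 3 dpi.

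Cd14, the lipopolysaccharide co-receptor, had 7.97 and 8.12 TPM in the control pair at 3 dpi and 11.0 and 20.5 TPM in the Osr1cKO pair. The 7 dpi levels were 12.3 and 9.94 TPM in the control pair and 26.8 and 25.5 TPM in the Osr1cKO pair. The genotypes did not overlap at either day (log2 fold change 0.95, adjusted p = 0.449 from limma). Cd14 is also a macrophage marker. The summed level of the other 14 macrophage markers overlapped between the genotypes at both days. It was 23.9 and 23.4 TPM in control against 24.1 and 15.4 TPM in Osr1cKO at 3 dpi, and 56.9 and 58.5 TPM against 53.8 and 78.1 TPM at 7 dpi. Csf1r, the receptor of macrophages for Csf1, was on the same side, between 0.528 and 2.0 TPM over all libraries. Of the 14 macrophage markers tested, 9 were higher and 5 lower, 2 of them (Cd14 and Csf1r) on the higher side at both days, and the median was 0.03 (-0.03 without replicate 1 of Osr1cKO at 3 dpi).

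Some collagens and tendon lineage genes were also above control at both days. Col11a1, a fibrillar collagen of cartilage and developing tendon, had 1.51 and 1.77 TPM in the control pair at 3 dpi and 3.09 and 2.97 TPM in the Osr1cKO pair. The 7 dpi values stood at 48.7 and 49.8 TPM in the control pair and 82.8 and 78.2 TPM in the Osr1cKO pair. The replicates were close and the 2 days gave nearly the same difference, 0.63 and 0.56 (log2 fold change 0.60, limma SE 0.09, adjusted p = 0.363). Col12a1, which decorates collagen I fibrils, had 268 and 256 TPM in the control pair at 3 dpi and 464 and 373 TPM in the Osr1cKO pair, and 437 and 301 TPM against 723 and 576 TPM at 7 dpi. Its difference was 0.69 at each day. Col24a1 was the remaining member of the fibrillar and associated collagen list above control at both days (log2 fold change 0.64), and Col9a3 was the 1 member below (-0.58). In deposited TPM, 5 members were above, with Col5a1 and Col5a2 added, and 0 below. Of all 35 tested genes of that list, 5 lay on opposite sides at the 2 days. Over both days, 23 were higher and 12 lower with a median of 0.09. That median was 0.31 at 3 dpi and -0.14 at 7 dpi, so the list itself did not share a direction. It also turned with 1 library, to 12 higher and 23 lower (median -0.05) without replicate 1 of control at 3 dpi and to 16 and 19 (-0.04) without replicate 1 of Osr1cKO at 3 dpi.

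Scx, a transcription factor of tendon progenitors, had 0.720 and 2.35 TPM in the control pair at 3 dpi and 5.83 and 2.89 TPM in the Osr1cKO pair. For 7 dpi the values were 8.55 and 7.27 TPM in the control pair and 12.9 and 26.3 TPM in the Osr1cKO pair. The replicates were far apart on these low levels, yet did not overlap the other genotype (log2 fold change 1.06, limma SE 0.30, adjusted p = 0.449). Tnmd, a transmembrane protein of mature tendon, stood at 2.85 and 3.25 TPM in control against 4.73 and 4.29 TPM in Osr1cKO at 3 dpi, and at 64.9 and 141 TPM against 264 and 350.2 TPM at 7 dpi. Mkx, Kera and Thbs4 were also on the higher side at both days. Of the 16 tendon lineage genes, 11 were higher and 5 lower, and the median was 0.19 with 0.08 at 3 dpi and 0.27 at 7 dpi. On the list, 5 were above control at both days, 0 were below and 3 lay on opposite sides at the 2 days. The 5 above control were the same in deposited TPM. The mean level of the list in single libraries overlapped between the genotypes at neither day, although 1 library at each day (replicate 1 of Osr1cKO at 3 dpi, replicate 2 at 7 dpi) carried most of the difference.

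The TGF-beta response list held 30 tested genes, of which 20 were higher and 10 lower in Osr1cKO (median 0.11). This was mostly a 3 dpi difference, with a median of 0.28 and 21 genes higher and 9 lower. At 7 dpi the median was 0.06, with 15 higher and 15 lower. Of the 30, 4 lay on opposite sides at the 2 days. Inhba, Scx, Tgfb2, Timp1 and Loxl2 lay above control at both days and Tgif1, a repressor of the pathway, below. Tgfb2, a ligand of the pathway, had 61.4 and 49.3 TPM in the control pair at 3 dpi and 86.3 and 73.9 TPM in the Osr1cKO pair, and 96.3 and 92.0 TPM against 113 and 114 TPM at 7 dpi. Tgif1 depended on the scaling, since its deposited level at 7 dpi was 113 and 107 TPM in the control pair and 114 and 116 TPM in the Osr1cKO pair. Without replicate 1 of Osr1cKO at 3 dpi the list split into 16 higher and 14 lower genes and its median was 0.01. Plod2, a collagen lysyl hydroxylase, had 133 and 198 TPM in the control pair at 3 dpi and 275 and 266 TPM in the Osr1cKO pair, and 272 and 242 TPM against 316 and 336 TPM at 7 dpi. Among the matrix-modifying enzymes and inhibitors, 22 of 36 were higher and 14 lower (median 0.08, and 0.01 without replicate 1 of control at 3 dpi). The median was 0.16 at 3 dpi and -0.03 at 7 dpi, where 16 genes were higher and 20 lower. Plod2, Timp1 and Loxl2 were above control at both days.

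**Figure D2:**
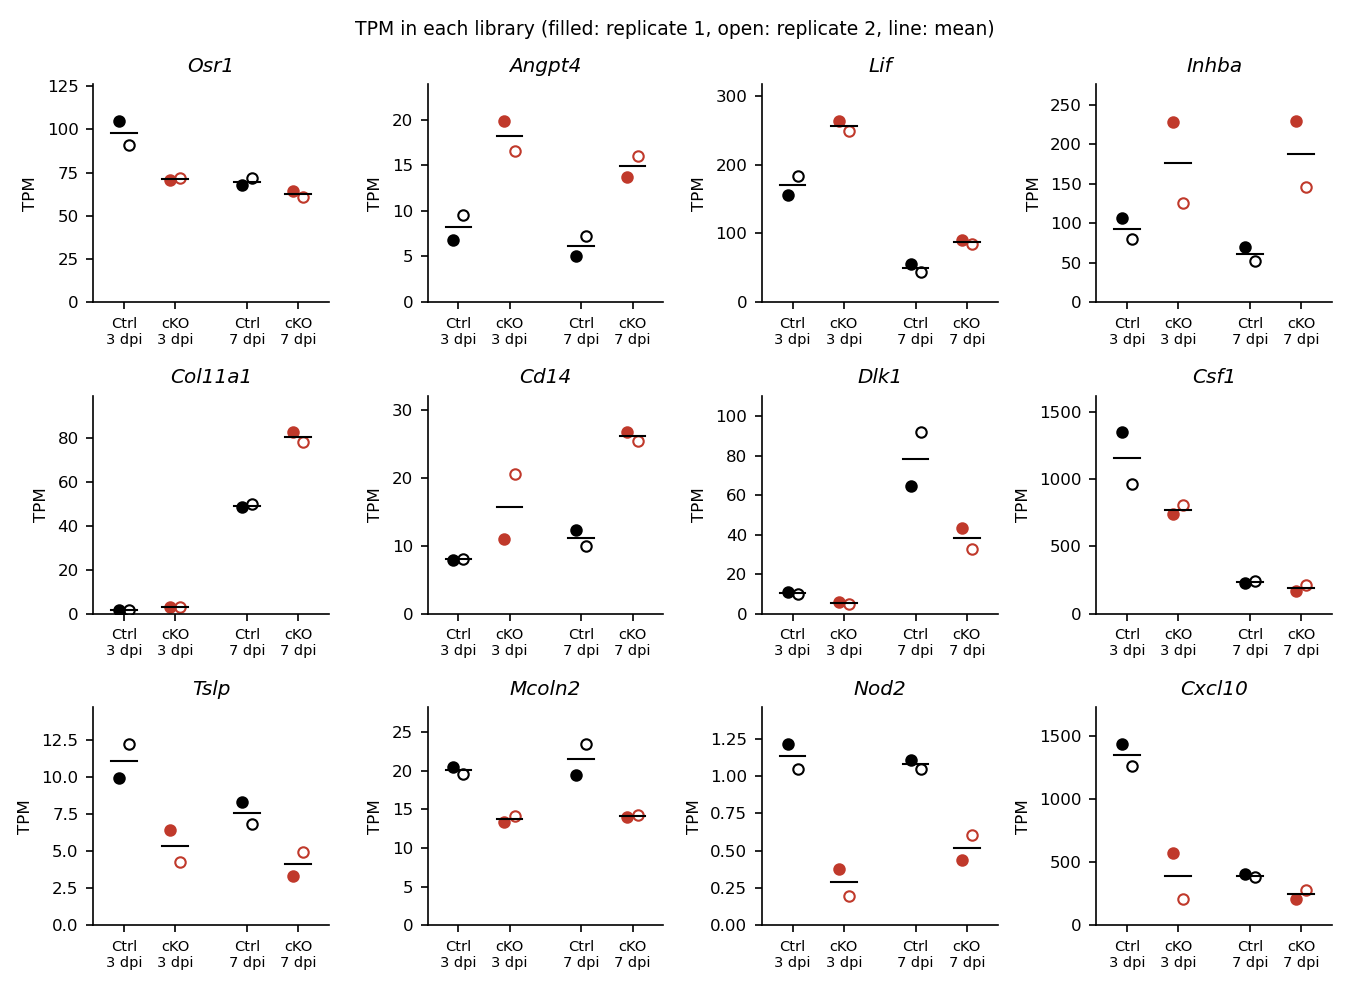
Deposited TPM of 12 genes in each of the 8 libraries, by genotype and day, with filled points for replicate 1, open points for replicate 2 and a line at the mean of each pair. The vertical axes start at 0 and differ between panels. Within each day the Osr1cKO points do not overlap the control points in any panel, and the genes other than Osr1 were picked for such a separation.

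The gene of smallest p was Rnf128, which encodes an E3 ubiquitin ligase of the endosome. It was low throughout, at 0.510 and 0.408 TPM in the control pair at 3 dpi and 1.76 and 1.90 TPM in the Osr1cKO pair. At 7 dpi there were 0.616 and 0.288 TPM in the control pair and 2.79 and 2.16 TPM in the Osr1cKO pair. Every Osr1cKO library was above every control library (log2 fold change 1.08, limma SE 0.12, adjusted p = 0.255). On such low levels the pseudocount shrinks the change, and limma-voom on fragments gave 2.18 for Rnf128. The other higher genes of smallest p were Prss46, Rpl37-ps1, Myo7a, Pde3b, Hs3st1, Ivns1abp, Kcnma1 and Mtmr7, beside those named above. Myo7a, an unconventional myosin, differed more at 3 dpi (1.16) than at 7 dpi (0.48). Pde3b, a phosphodiesterase that breaks down cAMP, had 3.45 and 4.81 TPM in the control pair at 3 dpi and 6.32 and 6.91 TPM in the Osr1cKO pair and a difference of 0.60 and 0.66 at the 2 days. Hs3st1, a heparan sulfate sulfotransferase, and Kcnma1, a calcium-activated potassium channel, gave log2 fold changes of 0.60 and 0.59. Exons of Kcnma1 and Mtmr7 overlap genes on the opposite strand, and whether the counting used strand is not given in the sources used here.

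By size, with unnamed gene models such as Gm5735 (1.32, a processed pseudogene) left out, the higher genes were led by Pcdhgb8, Car12, Brinp3, Inhba and Fen1. Car12, a membrane-bound carbonic anhydrase, had 8.40 and 6.47 TPM in the control pair at 3 dpi and 11.8 and 14.7 TPM in the Osr1cKO pair. The 7 dpi levels were 3.19 and 1.30 TPM in the control pair and 10.4 and 8.03 TPM in the Osr1cKO pair. Its log2 fold change was 1.19 (adjusted p = 0.449 from limma), with no overlap at either day. Pcdhgb8 had the largest value, 1.42, but this was a 3 dpi difference (2.70, with 0.14 at 7 dpi), and its last exons are common to the gamma protocadherin cluster. Fen1, a flap endonuclease of DNA replication, rested on 1 library, since control at 3 dpi was at 37.2 and 6.59 TPM. Processed pseudogenes made up 8.14% of the 934 higher genes, 1.72% of the 815 lower genes and 5.23% of all genes tested, and reads of near-identical copies could be split among them.

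**Figure D3:**
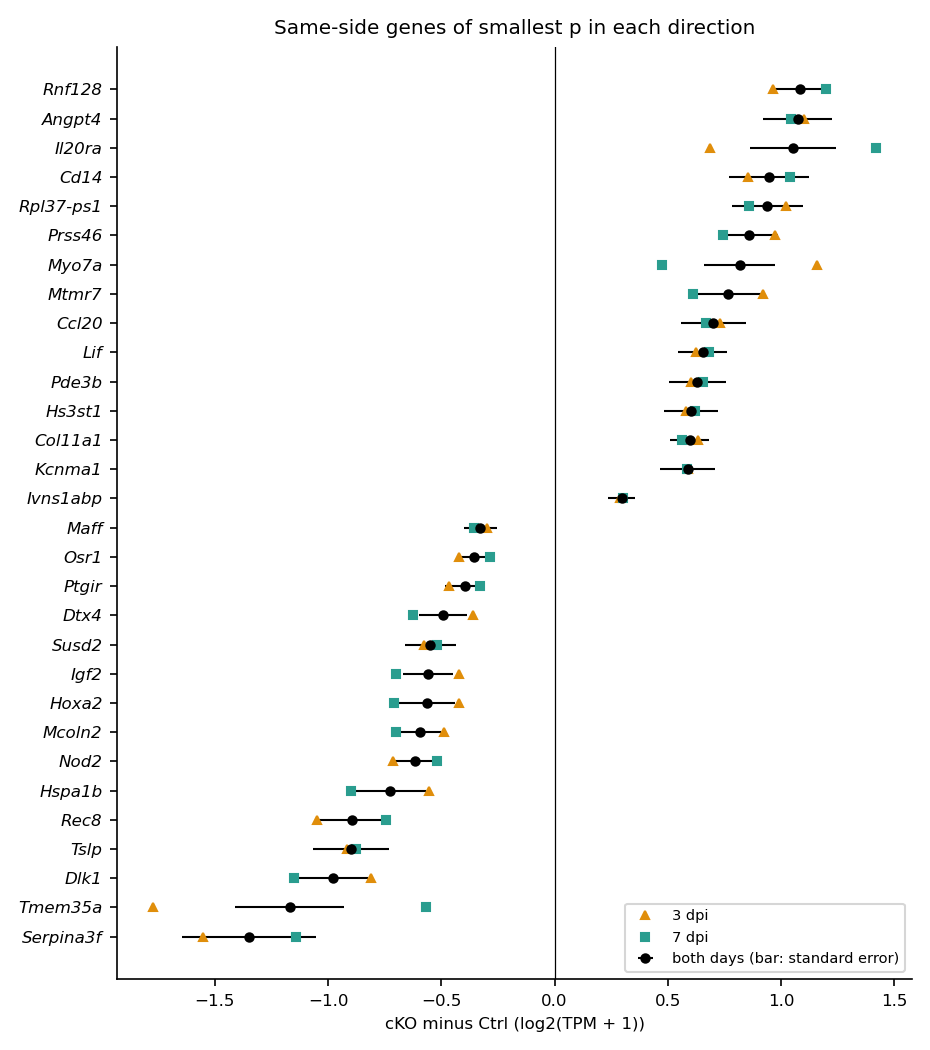
Log2 fold change of Osr1cKO over control for the 15 genes of smallest p in each direction among the same-side genes, with the estimate over both days (circle, bar 1 standard error), at 3 dpi (triangle) and at 7 dpi (square). All 30 genes have both days on the same side of 0, which the rule that picked them requires. The 3 and 7 dpi values lie farthest apart for Tmem35a, Il20ra and Myo7a.

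On the lower side, the gene of smallest p was Nod2, a cytosolic sensor of bacterial peptidoglycan. It had 1.22 and 1.05 TPM in the control pair at 3 dpi and 0.378 and 0.198 TPM in the Osr1cKO pair. The 7 dpi values stood at 1.11 and 1.05 TPM in the control pair and 0.435 and 0.602 TPM in the Osr1cKO pair. The control libraries of both days were nearly equal and all above Osr1cKO (log2 fold change -0.62, limma SE 0.09, adjusted p = 0.363). Mcoln2, an endolysosomal cation channel, gave 20.5 and 19.7 TPM in the control pair at 3 dpi and 13.4 and 14.1 TPM in the Osr1cKO pair, and 19.5 and 23.5 TPM against 14 and 14.3 TPM at 7 dpi. Its log2 fold change was -0.59 (adjusted p = 0.363 from limma), and again the 4 libraries of each genotype formed separate ranges over both days.

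Dlk1, the imprinted preadipocyte factor, stood at 11.1 and 9.77 TPM in the control pair at 3 dpi and 6.08 and 4.77 TPM in the Osr1cKO pair. For 7 dpi the values were 64.8 and 91.8 TPM in the control pair and 43.2 and 32.9 TPM in the Osr1cKO pair. The level differed several-fold between the days in both genotypes, and Osr1cKO was lower by 0.81 and 1.15 log2 units at the 2 days (log2 fold change -0.98, limma SE 0.16, adjusted p = 0.437). Igf2, an imprinted growth factor, had 1.52 and 1.24 TPM in the control pair at 3 dpi and 0.718 and 0.787 TPM in the Osr1cKO pair, and 4.10 and 3.86 TPM against 1.98 and 2.66 TPM at 7 dpi. It overlaps an antisense gene. Peg10, an imprinted retrotransposon-derived gene, was the third member of the imprinted list below control at both days. Of 23 imprinted genes tested, 6 were higher and 17 lower, with a median of -0.22 that was -0.08 at 3 dpi and -0.36 at 7 dpi. On this list, 4 genes lay on opposite sides at the 2 days. Pparg, the master regulator of adipogenesis, was below control at both days as well, but its 3 dpi values were 5.95 and 1.89 TPM in control against 1.66 and 1.89 TPM in Osr1cKO, so the nearest libraries were equal at this precision. Over the 18 adipogenic genes, 3 were higher and 15 lower (median -0.21, and -0.21 and -0.19 at the 2 days). Without replicate 1 of Osr1cKO at 3 dpi the median was -0.13. Without replicate 1 of control at 3 dpi, 7 were higher and 11 lower (median -0.15). The mean level of the list overlapped between the genotypes at 3 dpi. Its 2 members below control at both days were Pparg and Dlk1.

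Csf1 and Tslp were below control at both days. Csf1, the growth factor of macrophages, had 1347 and 959.7 TPM in the control pair at 3 dpi and 737 and 807 TPM in the Osr1cKO pair. At 7 dpi there were 230.3 and 244 TPM in the control pair and 169 and 214 TPM in the Osr1cKO pair. The genotypes did not overlap at either day (log2 fold change -0.49, limma SE 0.11, adjusted p = 0.449). Tslp, an epithelial and stromal cytokine for dendritic cells, had 9.89 and 12.2 TPM in the control pair at 3 dpi and 6.41 and 4.25 TPM in the Osr1cKO pair, and 8.29 and 6.81 TPM against 3.28 and 4.93 TPM at 7 dpi. Its difference was -0.92 and -0.88 at the 2 days. Serpina3f, a secreted serine protease inhibitor, had the largest difference among the 15 lower genes of smallest p, at -1.35, with 41.5 and 14.4 TPM in the control pair at 3 dpi and 6.14 and 9.24 TPM in the Osr1cKO pair. It belongs to a family of close copies among which reads could be split. Others of the 15 were Rec8, Susd2, Tmem35a, Dtx4, Maff, Hspa1b, Hoxa2 and Ptgir, with log2 fold changes between -1.17 for Tmem35a and -0.33 for Maff. Rec8, a meiotic cohesin subunit, had 2.27 and 1.18 TPM in the control pair at 3 dpi and 0.431 and 0.130 TPM in the Osr1cKO pair, and 3.00 and 3.89 TPM against 1.63 and 2.06 TPM at 7 dpi. Ptgir, the prostacyclin receptor, stood at 56.9 and 50.3 TPM against 33.0 and 43.0 TPM at 3 dpi and was closer at 7 dpi, with 37.5 and 39.4 TPM against 33.2 and 33.6 TPM. Maff, a small Maf transcription factor, gave nearly equal differences at the 2 days (-0.30 and -0.36), and Susd2, a membrane protein of mesenchymal cells, did so as well (-0.58 and -0.52).

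Genes of the NF-kB pathway were lower in 18 of 19 cases, beside 7480 of 16051 over all genes tested. Their median was -0.19, with -0.14 and -0.13 at 3 and 7 dpi. Tnfaip3, the A20 deubiquitinase that limits NF-kB signaling, had 54.5 and 69.7 TPM in the control pair at 3 dpi and 44.0 and 43.9 TPM in the Osr1cKO pair. The 7 dpi levels were 148 and 149.7 TPM in the control pair and 88.0 and 129 TPM in the Osr1cKO pair. There was no overlap at either day (log2 fold change -0.53, adjusted p = 0.449 from limma). Bcl3, Nfkb2 and Traf1 were the others below control at both days, with log2 fold changes of -0.46, -0.19 and -0.23. Nfkb2, the precursor of the p52 subunit, depended on the scaling, with 109 and 115 TPM in the control pair at 7 dpi and 113 and 108 TPM in the Osr1cKO pair. Without scaling between libraries, 15 of the 19 genes were lower. The mean of the list did not overlap between genotypes at either day.

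Interferon targets formed another group on the lower side, and 6 promoters of named members are shown here because they hold a motif known from such genes. The motif searched was the core of the interferon-stimulated response element, GAAANNGAAA, on both strands of RefSeq promoters of build GRCm38.p6, each with 250 bases before and 50 after the annotated start. It was in 8.35% of the 850 promoters of genes below control at both days, in 3.06% of the 785 promoters of genes above control, in 2.74% of the 12723 promoters of the other tested genes and in 3.44% of all 32851 promoters. Of the 50 named genes on the lower side, 34 had a promoter entry and 7 of these held the motif, against 1 of 27 on the higher side (Ebp). In the seventh, Igf2, the match lay after the start and is not shown. The named genes were picked in part from the interferon-stimulated, guanylate-binding protein, MHC class I and chemokine lists. Each of these lists had 0 members above control at both days. The contrast between the named genes of the 2 sides was thus largely set by how they were picked. A match is a description of the sequence and not a binding site. Each line reads 5′ to 3′ in the direction of the gene, with up to 25 bases on each side and the motif in capitals, on either strand.
Cxcl10 (chr5:92349068-92349127, minus strand): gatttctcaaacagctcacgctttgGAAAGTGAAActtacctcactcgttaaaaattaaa
Gbp2 (chr3:142620579-142620638, plus strand): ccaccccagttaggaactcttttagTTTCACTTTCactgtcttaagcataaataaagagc
Irgm2 (chr11:58214888-58214947, plus strand): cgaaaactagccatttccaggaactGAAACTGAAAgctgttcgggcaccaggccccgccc
Ifi206 (chr1:173491324-173491383, minus strand): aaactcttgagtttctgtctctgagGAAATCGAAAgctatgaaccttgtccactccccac
Ifi208 (chr1:173673582-173673641, plus strand): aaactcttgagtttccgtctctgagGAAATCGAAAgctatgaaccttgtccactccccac
Ifi213 (chr1:173599311-173599370, minus strand): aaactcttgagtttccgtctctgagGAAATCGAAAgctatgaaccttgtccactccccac
The windows of Ifi208 and Ifi213 are identical and that of Ifi206 is nearly so, and these neighbors on chromosome 1 belong to a family of DNA sensors with close copies, so reads could be split among them.

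Cxcl10, a chemokine for T and NK cells, had 1438 and 1264 TPM in the control pair at 3 dpi and 573 and 206 TPM in the Osr1cKO pair. The 7 dpi values stood at 403 and 378 TPM in the control pair and 206 and 281 TPM in the Osr1cKO pair. The genotypes were apart at both days, by 1.94 log2 units at 3 dpi and 0.83 at 7 dpi (log2 fold change -1.39, limma SE 0.34, adjusted p = 0.449). Cxcl9, which binds the same receptor, was lower by 2.10 and 1.10 log2 units, with 551 and 370.0 TPM in the control pair at 3 dpi and 268 and 38.9 TPM in the Osr1cKO pair. Cxcl11 was on the same side at or under 1.78 TPM. The remaining chemokines below control at both days were Ccl7 and Ccl11, which attract monocytes and eosinophils, with log2 fold changes of -0.42 and -0.72. In deposited TPM these last 2 overlapped at 7 dpi. Of the 23 chemokines on the list, 7 were higher and 16 lower, 0 and 5 of them separated on the same side at both days, and the median was -0.16 (-0.26 to -0.07 with single libraries left out, nearest to 0 without replicate 2 of control at 7 dpi). Ccl20, described above as higher at both days, is not on this list.

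The list of 40 interferon-stimulated genes had 39 lower and 1 higher member, with 19 below control at both days and 0 above. Its median was -0.79, beside 0.01 over all genes. That value joined a large difference at 3 dpi (-1.38) to a small one at 7 dpi (-0.23). Isg15, a ubiquitin-like modifier, showed this in single libraries, with 1858 and 1675 TPM in the control pair at 3 dpi and 1196 and 315 TPM in the Osr1cKO pair but 193 and 191 TPM in the control pair at 7 dpi and 157 and 195 TPM in the Osr1cKO pair. The last value lies above both controls, and only the scaling put Isg15 below them. In deposited TPM, 8 of the 40 genes were below control at both days, Ifit1, Ifit3, Ifit3b, Ifih1, Oas2, Mx2, Irf9 and Rtp4. Ifit3, an antiviral effector, had 961 and 818 TPM in the control pair at 3 dpi and 423 and 105 TPM in the Osr1cKO pair, and 101 and 126 TPM against 76.6 and 96.6 TPM at 7 dpi. Its log2 fold change was -1.28 (limma SE 0.45, adjusted p = 0.449). The lowest level of the list was in replicate 2 of Osr1cKO at 3 dpi. Without this library 39 of 40 genes were still lower, but the median was -0.38.

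Guanylate-binding proteins and immunity-related GTPases, which restrict intracellular pathogens, were lower in 15 of 15 cases, 11 of them below control at both days (8 in deposited TPM). Gbp2 had 451 and 319.5 TPM in the control pair at 3 dpi and 203 and 91.9 TPM in the Osr1cKO pair. For 7 dpi the values were 143 and 177 TPM in the control pair and 121 and 142 TPM in the Osr1cKO pair. The nearest libraries at 7 dpi were 143 and 142 TPM, so the separation there was narrow, while Irgm2 was farther apart with 52.6 and 61.9 TPM against 35.6 and 49.2 TPM. The list median was -0.92, with -1.53 at 3 dpi and -0.34 at 7 dpi, and -0.52 without replicate 2 of Osr1cKO at 3 dpi, when 14 of 15 were lower. Of the 20 genes of MHC class I antigen presentation, 20 were lower, 6 of them below control at both days and 1 of them, H2-T23, in deposited TPM as well. Their median was -0.62, with -1.13 at 3 dpi and -0.08 at 7 dpi. Without replicate 2 of Osr1cKO at 3 dpi it was -0.28, and 20 of 20 were still lower. H2-T23, a nonclassical class I molecule, had 323 and 210.3 TPM in the control pair at 3 dpi and 148 and 44.6 TPM in the Osr1cKO pair, and 125 and 127 TPM against 98.5 and 119 TPM at 7 dpi. Nlrc5, the transactivator of class I genes, differed by 2.08 log2 units at 3 dpi, but at 7 dpi its deposited levels overlapped, at 8.16 and 8.12 TPM against 6.18 and 8.37 TPM.

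Among the 5 lower genes of largest difference, unnamed gene models such as Gm50475 left out, Ifi206, Ifi208 and Ifi213 had most of it at 3 dpi and low levels at 7 dpi. Ifi206 stood at 174 and 55.9 TPM in the control pair at 3 dpi and 18 and 2.98 TPM in the Osr1cKO pair, and at 2.46 and 4.18 TPM against 0.851 and 1.67 TPM at 7 dpi. The genotypes were apart at both days, on levels that differed greatly between them. Ucp2, a mitochondrial carrier, had 51.5 and 62.3 TPM in the control pair at 3 dpi and 8.51 and 5.07 TPM in the Osr1cKO pair but 8.58 and 8.65 TPM against 8.79 and 8.85 TPM at 7 dpi. Its shared value of -1.49 was thus a 3 dpi difference, and its 7 dpi side came from the scaling alone.

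**Figure D4:**
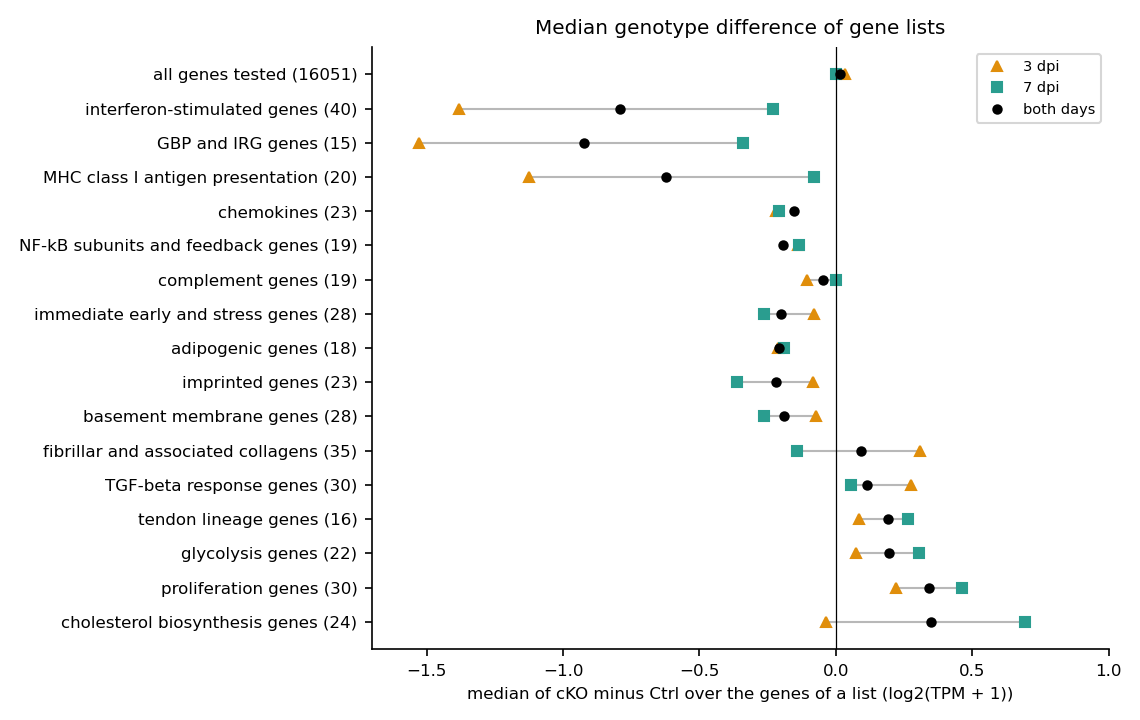
Median difference of Osr1cKO minus control in log2(TPM + 1) for 16 gene lists and for all 16051 genes, at 3 dpi (triangle), at 7 dpi (square) and over both days (circle), with the number of genes tested in parentheses. The 3 interferon-related lists lie far to the left at 3 dpi (-1.13 to -1.53) and closer to 0 at 7 dpi (-0.08 to -0.34), while cholesterol biosynthesis lies near 0 at 3 dpi and to the right at 7 dpi.

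Proliferation genes were higher in 30 of 30 cases over both days, with a median of 0.34 and with 0.22 at 3 dpi and 0.46 at 7 dpi. Of these, 8 were above control at both days, Ccna2, Ccnb1, Ccnb2, Cdk1, Cdc20, Plk1, Rrm2 and Cenpa, and 7 of the 8 in deposited TPM. Plk1, a mitotic kinase, had 113 and 139.7 TPM in the control pair at 3 dpi and 152 and 163 TPM in the Osr1cKO pair. At 7 dpi there were 7.64 and 6.06 TPM in the control pair and 15.6 and 11.6 TPM in the Osr1cKO pair. The levels of the days lay far apart, and within each day Osr1cKO was above control (log2 fold change 0.56, limma SE 0.15, adjusted p = 0.449). The mean of the list overlapped between genotypes at 3 dpi, where replicate 2 of control was above replicate 1 of Osr1cKO. With single libraries left out, between 28 and 30 of the 30 genes were higher and the median lay between 0.23 and 0.46.

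Cholesterol biosynthesis genes were higher in 23 of 24 cases with a median of 0.35 (0.23 without replicate 2 of control at 7 dpi), but this was a 7 dpi difference (0.69) and the 3 dpi median was -0.04. Stard4, a sterol carrier, was above control at both days, with 28.9 and 26.6 TPM in the control pair at 3 dpi and 31.2 and 30.7 TPM in the Osr1cKO pair and 14 and 13.0 TPM against 26.0 and 23.8 TPM at 7 dpi. Immediate early and stress genes were lower in 22 of 28 cases (median -0.20). At 3 dpi 12 were higher and 16 lower (median -0.08), and the mean of the list overlapped between genotypes. At 7 dpi 2 were higher and 26 lower (median -0.26), and 3 genes lay on opposite sides at the 2 days. Hspa1b and Hspa1a, which encode inducible heat shock proteins, and Gadd45b and Klf2 were below control at both days and Nr4a2 above, and Klf2 only after scaling. Hspa1b had 196 and 155 TPM in the control pair at 3 dpi and 110.4 and 122 TPM in the Osr1cKO pair, and 1527 and 1131 TPM against 628 and 955 TPM at 7 dpi. The 2 heat shock genes are near-identical copies, so their values are not independent. Basement membrane genes were lower in 21 of 28 cases (median -0.19, and -0.13 without replicate 1 of control at 3 dpi). Their median was -0.07 at 3 dpi, with 11 higher and 17 lower, and -0.26 at 7 dpi, with 3 and 25. Col4a3, Agrn and Egfl6 were below control at both days. Egfl6 was so only after scaling, and 5 of the 28 genes lay on opposite sides at the 2 days.

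**Figure D5:**
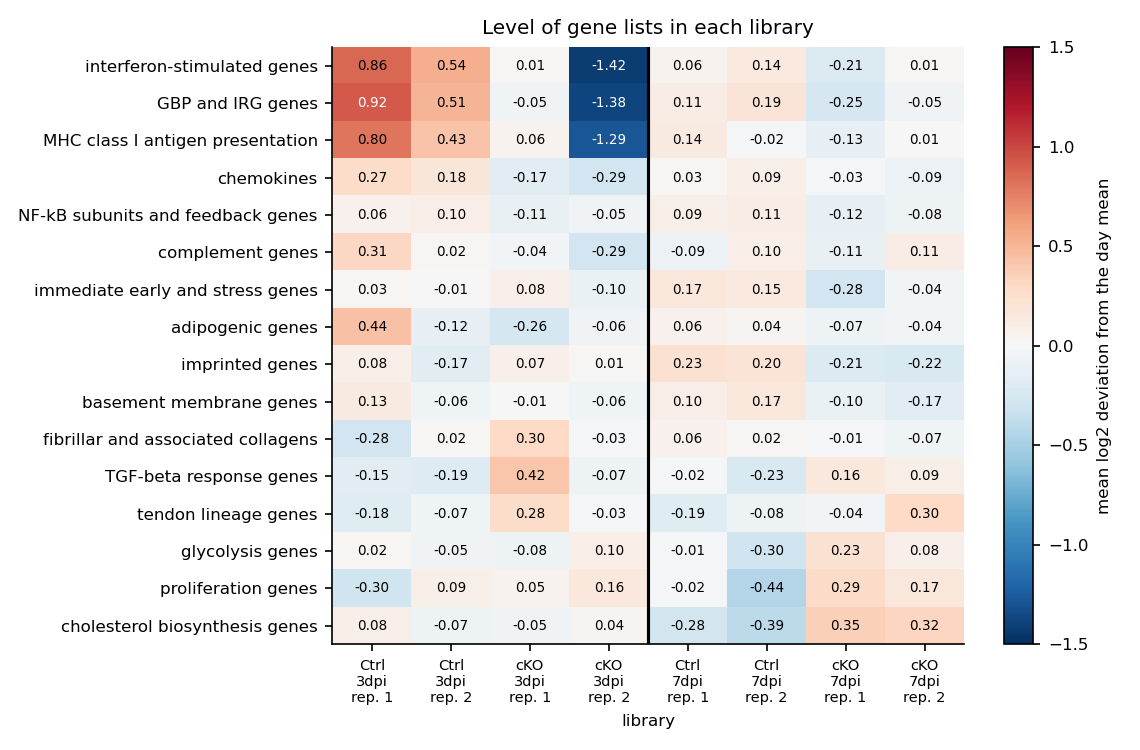
Mean level of 16 gene lists in each of the 8 libraries, as the log2(TPM + 1) deviation of each gene from its mean at that day, averaged over the list (red above, blue below the day mean). The interferon-related lists range from 0.86 in control replicate 1 to -1.42 in Osr1cKO replicate 2 at 3 dpi for interferon-stimulated genes, and from 0.14 to -0.21 at 7 dpi.

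Whether the effect of genotype differed between the days was tested by the interaction term. By limma, 0 of 16051 genes (0%) passed an adjusted p under 0.1, with a smallest value of 0.247, and 1098 had an unadjusted p under 0.05, while limma-voom gave 0 at the adjusted p. The same-side rule selects against an interaction, so a low count among same-side genes is set by the rule. Of these genes, 24 of 934 higher and 38 of 815 lower ones had an interaction p under 0.05. Elastin (Eln), the core protein of elastic fibers, was one of them, with 105 and 89.2 TPM in the control pair at 3 dpi and 83.5 and 71.6 TPM in the Osr1cKO pair but 249 and 247 TPM against 92.9 and 121 TPM at 7 dpi. It was below control at both days, by 0.29 and by 1.36 log2 units. Thbs4, a matricellular protein of tendon, went the other way in time, with a difference of 1.42 at 3 dpi and 0.15 at 7 dpi. A same side at both days is thus not the same size at both days.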

How the data were processed

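The data are bulk RNA-seq of GFP+ FAPs sorted from injured mouse muscle, 2 libraries for each genotype and day. As deposited by the authors, each table gives TPM per gene for 1 library, aligned with STAR per the submitters' processing notes, which also name DESeq2. The counter, its use of strand and the annotation release are not given in the sources used here. Which of the instruments the study names ran which day is not known.

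Of 55385 entries, 109 repeated ones were left out. Fragment numbers were recovered from the steps between low TPM values with exon lengths of GRCm38, and between 98.7% and 98.9% of low values were whole within 0.02. Genes with at least 10 fragments in at least 4 libraries entered the test (mean TPM of at least 1 for the 227 without a length), which left 16051. Because TPM are not counts, log2(TPM + 1) was fitted after scaling by a trimmed mean of log ratios (30% and 5% trimmed) with limma 3.58.1 in R 4.3.3, moderated with a mean trend, as day plus genotype over 8 libraries. A gene was called at a Benjamini-Hochberg adjusted p under 0.1 with a fold change over 1.2. Summaries used Python 3.11.15, pandas 2.3.3 and NumPy 2.4.6, and the scripts were tested on simulated data. The simulation set the same spread for every gene, so it does not measure power or error rates in these libraries. The p-values measure the spread between libraries, which at 7 dpi are pools.

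Named genes were Osr1, then among genes on the same side at both days the 15 of smallest p in each direction (symbols of unnamed gene models left out), up to 3 of smallest p per list, and the 5 of largest change in each direction with a mean of at least 1 TPM (unnamed models left out here too). Other members on the same side were named to account for a list's count, after their values were seen. Genes, lists and the comparison were chosen with earlier results of these data known. Alternatives varied the scaling, filter, pseudocount, moderation, weights, day term and block, used limma-voom on recovered fragments, and left out each library in turn.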

Additional observations from a re-analysis of the deposited data

Results flagged for a closer look

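At 3 dpi 586 genes had both Osr1cKO libraries above and at 7 dpi both below the controls, and 377 genes had the reverse order. Whether the days differed was not tested for these genes as a group. For 5 lists the mean level also lay on opposite sides with no overlap at either day, and these differences between days were not tested. Cytokines and their receptors had a mean difference of -0.17 at 3 dpi and 0.12 at 7 dpi. The values were 0.24 and -0.11 for elastic fiber, proteoglycan and matricellular genes, 0.092 and -0.20 for IGF and IGF-binding genes, and 0.49 and -0.10 for clustered protocadherin genes, whose members share exons. Endothelial markers had -0.31 and 0.24, on summed levels of 16.0 to 24.7 TPM in control and 9.42 to 10.5 TPM in Osr1cKO at 3 dpi, and of 22.8 to 23.4 TPM and 29.5 to 30.7 TPM at 7 dpi.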

How the results depend on the processing

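All 1835 values of the 92 named genes under the alternatives kept their direction, and 0 passed an adjusted p of 0.1. These genes were picked for lying on the same side at both days. Their direction could thus hardly turn, and that it held is no further support. No alternative that kept the adjusted p called a gene for the shared effect. Without adjustment the calls were 694 higher and 720 lower. At that threshold no scaling gave 1183 and 410, no day term 123 and 154, and single libraries left out 489 to 1131 and 513 to 1084, the highest without replicate 2 of control at 3 dpi (1131 and 1084). The interaction gave 15 higher and 25 lower genes with no filter, 1 lower gene with a mean TPM of at least 1, 2 lower with a pseudocount of 0.1 and 520 and 578 without adjustment. With single libraries left out it gave 0 to 76 higher, the most without replicate 1 of Osr1cKO at 3 dpi, and 0 to 87 lower, the most without replicate 1 of control at 3 dpi. Genes on the same side numbered 1611 and 409 with no scaling and 41 and 44 with a gap of at least 1.2 times. Left-out libraries gave 1262 to 2225 and 1089 to 1727, since a group of 1 library makes the criterion laxer. The median of a list changed sign in 30 combinations of list and alternative. The cause of the other changes was not tested.

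Same-numbered libraries of the 2 genotypes had deviations correlated at -0.13 at 3 dpi and 0.08 at 7 dpi, so they share only a number. With the replicate block within day, 0 genes were called, with 656 higher and 701 lower before adjustment.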

Other observations

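Over all 16051 genes tested, 8571 were higher and 7480 lower, the background for the splits that follow. Complement genes were lower in 11 of 19 cases (median -0.05, and -0.19 without replicate 2 of Osr1cKO at 7 dpi), with C1ra, C2 and Serping1 below control at both days after scaling and 0 of them in deposited TPM. C1ra, a protease of the classical pathway, had 335 and 261 TPM in the control pair at 3 dpi and 215 and 211 TPM in the Osr1cKO pair. Among 33 BMP and Wnt pathway genes 12 were higher and 21 lower (median -0.08, between -0.16 and -0.06 with single libraries left out). The secreted Wnt antagonist Sfrp1 stood at 81.4 and 124 TPM against 152 and 237 TPM at 3 dpi and at 237 and 216 TPM against 411 and 296 TPM at 7 dpi. Dkk3 was on the same side, and Id3, a BMP target, and Wnt4 were on the other, both of these only after scaling. Glycolysis genes were higher in 18 of 22 cases (median 0.19, and 0.12 without replicate 2 of control at 7 dpi). Their median was 0.07 at 3 dpi (14 higher, 8 lower) and 0.31 at 7 dpi (20 higher, 2 lower). At 3 dpi the mean of the list overlapped between genotypes. The lactate carrier Slc16a3 was above control at both days, by 0.58 and 0.60 log2 units. Of 21 cartilage and bone genes 13 were higher (median 0.05, and 0.0045 without replicate 1 of Osr1cKO at 3 dpi), with Pth1r, the receptor of parathyroid hormone, and Chrdl2 above and Omd and Cnmd below control at both days. In deposited TPM Cnmd lost its side and Matn3 was added above control. Elastic fiber, proteoglycan and matricellular genes split into 19 higher and 21 lower (median -0.03), IGF genes into 4 and 6 (-0.15) and protocadherins into 16 and 6 (0.08). With single libraries left out these 3 medians lay between -0.09 and 0.10, between -0.22 and -0.02 and between -0.01 and 0.16.

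FAP markers were higher in 7 and lower in 14 of 21 cases (median -0.06), and Osr1 was the 1 member separated on the same side at both days. Neutrophil markers were higher in 3 of 3 (median 0.58), myofiber markers lower in 12 of 14 (-0.20) and Schwann cell markers lower in 5 of 7 (-0.08). Left-out libraries gave medians of 0.32 to 0.83, -0.31 to -0.09 and -0.14 to -0.0022. Muscle stem cell markers were lower in 8 of 8 (-0.19), but without replicate 1 of control at 7 dpi 4 were higher and 4 lower (0.03). Their summed level at 7 dpi was higher in Osr1cKO, at 474 to 488 TPM against 400.6 to 466 TPM. The defining genes Pax7 and Myod1 made up little of that sum, at or under 2.30 and 2.04 TPM in every library. At 7 dpi Pax7 stood at 2.30 and 0.170 TPM in the control pair and 0.355 and 0.444 TPM in the Osr1cKO pair. Lymphoid (3 of 3 lower, -0.26) and erythroid markers (2 of 2 lower, -0.30) were few, the latter with a median of 0.09 without replicate 1 of Osr1cKO at 7 dpi, and Cd8a and Ms4a1 were at 0 in every library. Endothelial markers were higher in 7 of 11 (0.02) and pericyte and smooth muscle markers in 5 of 10, and both medians changed sign with single libraries left out.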
